A study of Mus musculus with 7 samples.

Results

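The Krüppel-like factors (Klf genes) were described in follicular dendritic cells (FDCs) of WT and Ngfr KO mice. The 10 genes are Klf2, Klf3, Klf4, Klf6, Klf7, Klf9, Klf10, Klf11, Klf13 and Klf16, among 21176 genes in the deposited table. They were taken by symbol from the Klf family, and the family was selected on the Ngfr KO against WT values themselves, because Klf2 and Klf4 were far lower in Ngfr KO. The family's own differences between the genotypes are therefore given as a description and support nothing further. The mouse family was listed with 18 genes, of which 15 were in the table. The remaining 5 of those, Klf1, Klf5, Klf8, Klf12 and Klf15, are given for completeness.

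FDCs are the stromal cells on which B cells of a follicle meet intact antigen. They came from the popliteal nodes of male mice, 8 to 12 weeks old and not immunized, and were isolated by FACS. There were 4 samples from WT mice and 3 from mice labelled Ngfr KO, Ngfr being the gene for the p75 neurotrophin receptor, and nodes of several animals went into each sample. The labels give no strain, allele or sorting gate, so whether Ngfr was absent from every cell of the animals is not given in the sources used here.

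Klf proteins bind GC-rich and CACCC-type DNA through zinc fingers near their C-terminus and are close relatives of the Sp factors. Klf2 and Klf4 are induced by blood flow in endothelial cells, through the kinases MEK5 and ERK5 and the MEF2 factors, and there favour anticoagulant and anti-inflammatory genes. In lymphocytes Klf2 maintains S1pr1 and with it exit from lymph nodes. Several members, Klf2, Klf4, Klf6 and Klf10 among them, also respond quickly to stimulation of a cell.

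Libraries held 17244925 to 18873542 reads in WT, against 20741770 to 21538400 in Ngfr KO, so every Ngfr KO library was the deeper one, and depth and genotype cannot be told apart. When reads were thinned to equal depth in all samples, the number of Klf genes that passed the test, 6, was the same as without thinning. Reads on Ngfr itself numbered 97, 181, 298 and 298 in the WT samples and 84, 104 and 46 in the Ngfr KO samples. As normalised values these were 0.377 to 1.30 and 0.184 to 0.353, so the groups did not overlap, but Ngfr was not absent from the Ngfr KO samples. It did not reach the limma filter, and edgeR gave a log2 change of -1.55 (SE 0.49, adjusted p = 0.0574) and did not call it. FDC markers were abundant in all 7 samples: the summed value of 14 genes such as Cr2, Cxcl13 and Clu ran from 1824 to 5109 in WT, against 7873 to 10397 in Ngfr KO. Of these 14 genes, limma called 13 higher in Ngfr KO and not the other one, beside 18.3% of all tested genes called higher. In edgeR 12 were called higher. In such bulk samples fewer cells of a type and less RNA per cell cannot be told apart, here or for any gene below. The values, called TMM by the authors, are read counts scaled by 1 factor per sample, and a value of 1 was worth 230 to 295 reads.

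Klf2, which encodes the flow-responsive factor of endothelium and resting lymphocytes, lies on chromosome 8 from 72319033 to 72321656 (plus strand, GRCm38). Its values were 16.7, 11.2, 21.9 and 13.3 in WT replicates 1 to 4 and 0.987, 1.91 and 1.17 in Ngfr KO replicates 1 to 3. The lowest WT sample was far above the highest Ngfr KO sample, and the Ngfr KO mean was 8.57% of the WT mean. These values rest on 3003 to 5045 reads in WT, against 272 to 562 in Ngfr KO, so Klf2 was well covered in both genotypes. The log2 change was -2.81 (SE 0.22) on the log2(value + 1) scale and -3.46 (SE 0.34) in edgeR on the recovered reads. Only 1 of 8326 tested genes fell further on the first scale, which shrinks the falls of genes with low values. In edgeR, Cd300lg (-5.02) and Gpihbp1 (-3.84), for instance, fell further than Klf2.

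Klf4, known as a pluripotency factor and as a regulator of epithelial barrier and monocyte differentiation, lies on chromosome 4 from 55527143 to 55532466 (minus strand, GRCm38). Its values were 21.6, 19.0, 30.0 and 16.5 in WT and 2.65, 4.13 and 3.30 in Ngfr KO, in the order of the replicates. The groups were again far apart, with an Ngfr KO mean at 15.4% of the WT mean. The log2 change was -2.37 (SE 0.21) on log2(value + 1) and -2.62 (SE 0.27) in edgeR. On log2(value + 1), which shrinks the falls of genes with low values, Klf4 ranked 7 among the falls of all tested genes. Gpihbp1 and Cldn11, for instance, fell less than Klf4 on that scale (-2.23 and -1.83) but further in edgeR (-3.84 and -2.72). In Klf2 and in Klf4, WT replicate 3 was the highest WT sample and Ngfr KO replicate 2 the highest Ngfr KO sample.

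Klf6, a broadly expressed member that is induced by tissue injury, went the other way. It lies on chromosome 13 from 5861482 to 5870394 (plus strand, GRCm38). Its values were 15.4, 18.7, 29.6 and 19.0 in WT and 49.8, 72.2 and 30.6 in Ngfr KO. The Ngfr KO samples differed among themselves by 2.36 times, and the lowest of them was only just above WT replicate 3. The Ngfr KO mean was 2.46 times the WT mean, with a log2 change of 1.22 (SE 0.29) on log2(value + 1) and 1.39 (SE 0.32) in edgeR. Klf6 passed the limma threshold as reported but not when no filter on low values was used.

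The stretches before the start sites of these 3 genes are shown because they are the members that fell most and the one that rose. They are RefSeq windows on GRCm38.p6, printed 5′ to 3′ on the gene's own strand up to the earlier of the RefSeq and GENCODE starts: chr8:72318812-72319032 (plus strand) for Klf2, chr4:55532476-55532725 (minus strand) for Klf4 and chr13:5861239-5861481 (plus strand) for Klf6. Capitals mark GGGCGG on either strand (the GC box), CACGTG (the E-box) and, in Klf2, a match to the MEF2 motif.
Klf2: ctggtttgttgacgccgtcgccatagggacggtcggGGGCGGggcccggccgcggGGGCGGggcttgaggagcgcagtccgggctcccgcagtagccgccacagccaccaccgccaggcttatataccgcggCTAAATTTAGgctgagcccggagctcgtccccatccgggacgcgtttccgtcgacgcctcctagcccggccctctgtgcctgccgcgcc
Klf4: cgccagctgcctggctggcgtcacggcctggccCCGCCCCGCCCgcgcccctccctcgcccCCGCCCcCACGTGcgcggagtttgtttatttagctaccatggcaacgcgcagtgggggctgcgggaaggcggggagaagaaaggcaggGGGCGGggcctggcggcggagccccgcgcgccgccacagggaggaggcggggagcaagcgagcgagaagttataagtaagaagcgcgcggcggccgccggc
Klf6: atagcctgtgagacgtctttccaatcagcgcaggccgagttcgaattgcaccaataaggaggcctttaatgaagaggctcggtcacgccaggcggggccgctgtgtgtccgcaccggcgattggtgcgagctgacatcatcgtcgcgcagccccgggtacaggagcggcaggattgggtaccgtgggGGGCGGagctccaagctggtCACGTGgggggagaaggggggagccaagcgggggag

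The MEF2 match of Klf2 reads CTAAATTTAG, with 108 bases between its last base and the RefSeq start. It is a match to CTA, 4 bases of any kind, then TAG, a motif that the windows of 1 of the 8 members with an entry and 3.69% of all 32851 RefSeq windows of 300 bases held. Klf10 and Klf16 had no entry. The GC box GGGCGG was in 7 of the 8 members' windows (all but Klf9) and in 35.7% of all windows, with 2 matches in Klf2, 4 in Klf4, of which 2 overlap by a base, 6 in Klf3 and 1 in Klf6. CCACCC, the CACCC box that Klf proteins themselves bind, was in 4 of 8 (Klf2, Klf3, Klf7 and Klf13) and in 31.5% of all windows; the Klf2 match lies in the part of its window that is not printed. CACGTG was in 3 of 8 (Klf4, Klf6 and Klf11) against 7.15% of all. TGANTCA, an AP-1 type motif, was in Klf9 alone, against 7.81% of all windows. TGACGTCA and GATAAG, held by 1.79% and 7.44% of all windows, had no match in the members' windows. All motifs were searched on both strands, and the same motif could overlap itself. GC content of the members' windows ran from 58.3% (Klf7) to 77.7% (Klf11) against a median of 52.7% over all windows. Members that fell (Klf2, Klf3, Klf4, Klf7, Klf13) and the member that rose (Klf6) all held a GC box.

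Klf7, the member named for its ubiquitous expression and known for a role in axon outgrowth, lies on chromosome 1 from 64029447 to 64122282 (minus strand, GRCm38). It had values of 14.3, 10.997, 13.8 and 10.2 in WT and 4.85, 4.15 and 5.95 in Ngfr KO. All Ngfr KO samples were below all WT samples, with a mean at 40.4% of WT and a log2 change of -1.15 (SE 0.18). An antisense lincRNA, Gm26649, shares 3196 exon bases with Klf7 in GENCODE M21; it had no row of its own among the genes used here, and the strand setting of the counting is not given in the sources used here.

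Klf3, a repressor that recruits CtBP and acts in B-cell and fat-cell development, lies on chromosome 5 from 64803388 to 64832901 (plus strand, GRCm38). It had values of 7.97, 6.45, 5.47 and 7.25 in WT and 3.78, 3.70 and 4.16 in Ngfr KO. There was no overlap, and the Ngfr KO samples lay close together, at 3.88 ± 0.24 (SD, n = 3). The log2 change was -0.66 (SE 0.16), so Klf3 kept 57.2% of its WT level where Klf2 kept 8.57%. An antisense transcript, Gm20033, shares 404 exon bases with Klf3 but was itself given 7 to 19 reads, against at least 1038 for Klf3.

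Klf13, known in T cells as a late activator of the chemokine gene Ccl5, lies on chromosome 7 from 63886351 to 63938915 (minus strand, GRCm38). It had values of 2.39, 2.37, 2.70 and 2.14 in WT and 1.08, 1.00 and 1.52 in Ngfr KO, without overlap. Its log2 change was -0.63 (SE 0.15) on log2(value + 1) and -0.94 (SE 0.22) in edgeR, the pseudocount of 1 being about as large as its Ngfr KO values. The longest run of bases that transcripts of any pair of members share was 36, between Klf3 and Klf13, followed by 26 between Klf6 and Klf7. Read length is not given in the sources used here, so how many reads could fit more than 1 member is unknown.

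Klf9, which responds to glucocorticoid and thyroid hormone, lies on chromosome 19 from 23141226 to 23168134 (plus strand, GRCm38). It had values of 2.29, 2.02, 1.02 and 1.74 in WT and 0.892, 1.29 and 1.14 in Ngfr KO. The groups overlapped because WT replicate 3 lay among the Ngfr KO samples, and Klf9 was not called, with a log2 change of -0.38 (SE 0.18). Without WT replicate 3 the log2 change was -0.52 and passed the threshold. 

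Klf10, a TGF-beta-inducible repressor on chromosome 15 from 38291463 to 38300706 (minus strand, GRCm38), had the smallest difference of the tested members. Its values were 2.86, 3.10, 2.43 and 3.52 in WT and 3.00, 3.26 and 2.80 in Ngfr KO. The groups overlapped throughout, the means were 2.98 and 3.02, and the log2 change was 0.02 (SE 0.15). Its sign turned under 3 of 18 alternatives.

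Klf11, another TGF-beta-inducible member (chromosome 12, 24651274 to 24662789, plus strand), and Klf16, a GC-box-binding member (chromosome 10, 80567124 to 80577321, minus strand), reached a value of 1 in too few samples (3 were required) and have no limma test. Klf11 had values of 0.728, 0.569, 0.469 and 0.610 in WT and 0.410, 0.444 and 0.240 in Ngfr KO. All 3 Ngfr KO samples were below all WT samples, and edgeR, which tested it on 60 to 187 reads, gave a log2 change of -0.62 (SE 0.39) and did not call it. Klf16 had 22, 14, 21 and 21 reads in WT and 5, 14 and 4 in Ngfr KO. Its highest Ngfr KO sample, with a value of 0.0475, was close to the lowest WT sample, at 0.0524, and edgeR did not call it (log2 change -1.40, SE 0.95).

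**Figure D1:**
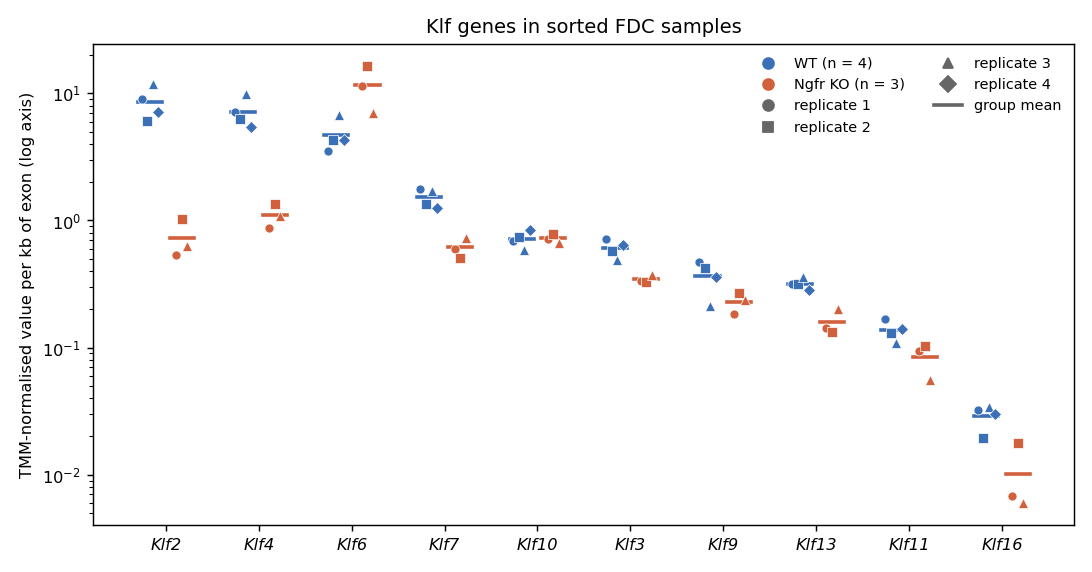
Value per kb of exon (log axis) of the 10 Klf genes in each WT (blue, n = 4) and Ngfr KO (orange, n = 3) sample, with symbols for replicates and a line at each group mean. Klf2 and Klf4 fall from the top of the family, Klf6 rises above all others, and the Klf10 samples overlap.

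Of the 8 members tested, limma called 5 lower (Klf2, Klf3, Klf4, Klf7 and Klf13) and 1 higher (Klf6), with Klf9 and Klf10 not called. Of all 8326 tested genes, 34.2% were called, 15.8% lower and 18.3% higher. In edgeR, which tested all 10 members, the same 6 were called, where 15.2% of its 16751 genes were. Groups did not overlap in 6 of the 8 tested members, against 40.9% of tested genes. The median log2 change of the 8 members was -0.65 and that of all tested genes 0.02. Because the family was picked from this same contrast, these shares describe it and nothing is read from them. Single samples did not move all members one way: WT replicate 3 was the highest WT sample for 5 members (Klf2, Klf4, Klf6, Klf13 and Klf16) and the lowest for 4 (Klf3, Klf9, Klf10 and Klf11).

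**Figure D2:**
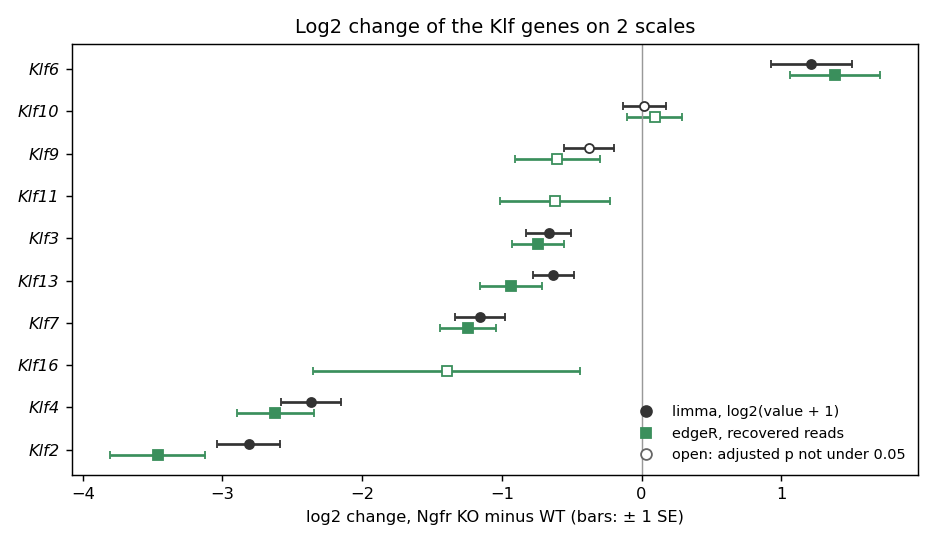
Log2 change (Ngfr KO minus WT, ± 1 SE) of each Klf gene on the log2(value + 1) scale from limma (circles) and from edgeR on recovered reads (squares), open where the adjusted p was not under 0.05. Klf2 and Klf4 lie at -2.81 and -2.37 on the limma scale and Klf6 at 1.22; Klf11 and Klf16 have an edgeR value only.

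Klf2 and Klf4 were set against the rest of the family within each sample. The mean log2(value + 1) of the other 8 members ran from 2.11 to 2.18 in WT, against 1.85 to 1.96 in Ngfr KO, a difference of -0.23. Klf11 and Klf16, with values under the pseudocount of 1, moved little on this scale (-0.22 and -0.07, against -0.62 and -1.40 in edgeR). Klf6, with a log2 change of 1.22, is part of that mean and offsets falls of other members in it. Klf2 stood above that mean by 1.96, 1.502, 2.41 and 1.72 in WT replicates 1 to 4, whereas its distance was -0.88, -0.42 and -0.74 in Ngfr KO replicates 1 to 3. Klf2 thus stood above that mean in every WT sample and below it in every Ngfr KO sample. Klf4 stood above the same mean by 2.02 to 2.85 in WT, and in Ngfr KO its distance ran from -0.0031 to 0.40. Relative to the other members, Klf2 moved by -2.58 and Klf4 by -2.13 on the log2 scale. On log2(value + 1) the next largest fall of a member, that of Klf7 at -1.15, ranked 190 among the falls of all tested genes.

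Divided by exon length, the values show which Klf transcript led in each genotype. In WT the level per kb of exon was 8.55 ± 2.53 for Klf2, 7.14 ± 1.93 for Klf4 and 4.71 ± 1.41 for Klf6 (SD, n = 4). Klf2 and Klf4 overlapped, and Klf4 was the higher of the pair in WT replicate 2 only. Klf4 and Klf6 also overlapped between samples, although Klf4 was the higher within each of the 4. Klf7 followed at 1.52 ± 0.25, apart from the genes on both sides of it. Klf10 (0.713) and Klf3 (0.603) overlapped, as did Klf9 (0.367) and Klf13 (0.318), and Klf11 (0.137) and Klf16 (0.0289) were the lowest. Among 21137 genes with a length, the WT levels per kb of Klf2 and Klf4 lay at percentiles 97.5 and 97.1. In Ngfr KO they lay at percentiles 81.5 and 86.0, and Klf6 led the family with 11.6 ± 4.7 per kb (SD, n = 3), followed by Klf4 at 1.10, Klf2 at 0.732, Klf10 at 0.723 and Klf7 at 0.613. The Klf6 level per kb was above that of every other member in each Ngfr KO sample, while Klf2, Klf10 and Klf7 overlapped. Klf4 and Klf2 overlapped between Ngfr KO samples too, although Klf4 was the higher within each.

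As shares of the summed levels per kb of the 10 members, Klf2 made up 30.2% to 38.1% in WT, against 3.60% to 5.76% in Ngfr KO. Klf4 made up 26.5% to 31.0% in WT, against 5.86% to 9.89% in Ngfr KO. Klf6 made up 14.7% to 21.2% in WT, against 63.6% to 78.4% in Ngfr KO. The 3 genes together held 82.3% to 89.1% of the sum in WT, against 79.3% to 89.8% in Ngfr KO, so the make-up of the leading trio changed while its joint share covered a like range. The ratio of Klf6 to Klf2 per kb was 0.387 to 0.700 in WT, against 11.03 to 21.2 in Ngfr KO. The summed level per kb averaged 24.1 ± 5.5 in WT and 15.6 ± 5.1 in Ngfr KO (SD, n = 4 and 3), and here the groups overlapped.

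**Figure D3:**
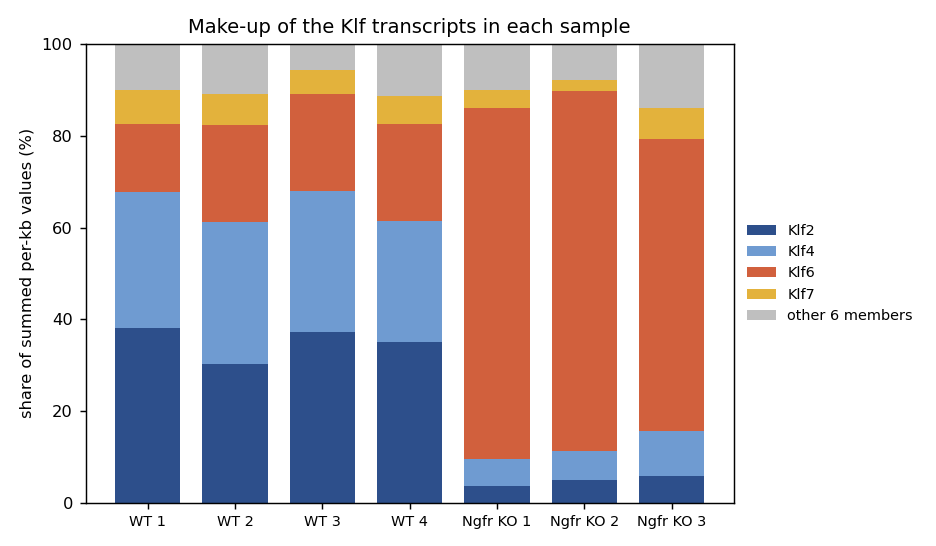
Share (%) of each Klf gene in the summed values per kb of exon of the 10 members, 1 bar per sample. Klf2 and Klf4 (blues) fill most of the WT bars and Klf6 (orange) 63.6% to 78.4% of the Ngfr KO bars.

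The other Klf genes were close to absent. Klf15, a metabolic and glucocorticoid-responsive member, had 32, 61, 49 and 43 reads in WT and 8, 35 and 21 in Ngfr KO. Klf5, known from epithelia and smooth muscle, had 2, 15, 8 and 10 reads in WT and 45, 26 and 26 in Ngfr KO. Neither was called by edgeR, although the groups did not overlap in either. Klf8 had at most 34 reads in any sample and Klf12 at most 66, with 0 reads in 2 WT samples. Klf1, the erythroid member, was covered by 9, 6, 0 and 0 reads in WT and 0, 6 and 0 in Ngfr KO. A count of 0 allows a value of up to 0.0102 to 0.0130, depending on the sample, from counting error alone.

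Endothelial markers were lower in the same samples as Klf2 and Klf4. Of 16 endothelial markers, 13 were tested and all 13 were called lower in Ngfr KO, beside 15.8% of all tested genes. Log2 changes of the 13 ran from -1.84 (Kdr) to -0.69 (Esam), with a median of -1.37. In edgeR, which tested all 16 markers, 13 were called lower. Their summed value was 151 to 198 in WT, against 37.2 to 67.2 in Ngfr KO, where the mean was 32.3% of WT. Defining genes such as Pecam1 (3.43 to 4.88) and Cdh5 (4.29 to 7.11) were still present in every Ngfr KO sample, and Sox17 had 0 reads in some samples of both genotypes. Klf2 fell further than all 16 endothelial markers in edgeR, where their median was -1.58, and Klf4 further than 15 of them, all but Emcn at -3.06. This holds for the listed markers only. Outside the list, Gpihbp1, a gene of capillary endothelium (-3.84), and Cd300lg (-5.02) fell further than Klf2 in edgeR. Fabp4 (-2.95) fell further there than Klf4 (-2.62). Per 100 units of summed endothelial value, Klf2 was at 7.19 to 11.9 in WT, against 1.57 to 3.13 in Ngfr KO, and Klf4 at 10.9 to 16.3 and 4.23 to 8.86, without overlap. Klf7 on the same footing was at 6.76 to 7.47 in WT, against 6.18 to 16.0 in Ngfr KO, with overlap. The part of endothelial RNA in the fall of the Klf genes was not tested.

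Lymphatic endothelial markers were lower too, with 5 of 5 tested genes called lower by limma, beside 15.8% of all tested genes, and 3 of 5 by edgeR. Their summed values were 63.5 to 127 in WT, against 20.03 to 44.0 in Ngfr KO. Of 8 T-cell markers tested by limma and 11 by edgeR, 0 were called by either and 0 had an unadjusted limma p under 0.05. The summed values of all 11 were 5.69 to 18.0 in WT, against 8.06 to 15.8 in Ngfr KO, with Cd4 at 0 reads in WT replicate 3. Of 6 B-cell markers tested by limma, 1 was called higher, beside 18.3% of all tested genes, and edgeR called 0 of 9. The summed value was 28.3 to 43.5 in 3 WT samples, 196 in WT replicate 3 and 19.6 to 65.2 in Ngfr KO. Limma called 2 of 3 tested myeloid markers higher, while edgeR, of 7, called 1 higher and 1 lower. Tested and untested myeloid markers together summed to 3.68 to 9.19 in WT, against 9.97 to 44.6 in Ngfr KO. Itgam, Adgre1, C1qa and C1qb were at 0 in some samples. Of 6 fibroblastic reticular markers tested by limma, 4 were called higher, beside 18.3% of all tested genes, and edgeR called 2 of 7 higher. Their summed values were 74.0 to 144 in WT, against 239 to 345 in Ngfr KO. Limma called 2 of 4 tested mural markers higher, and edgeR 1 of 6. The part of these cells in the Klf values was not tested.

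Of 20 immediate early genes, which are induced within minutes of stimulation and also by handling of tissue, 18 were tested. Limma called 8 lower in Ngfr KO, beside 15.8% of all tested genes, and not the other 10, with a median log2 change of -0.58. Fosb had a mean of 29.8 ± 8.0 in WT and 9.53 ± 2.90 in Ngfr KO (SD, n = 4 and 3), and its log2 change was -1.55 (limma SE 0.24, adjusted p = 9.7e-04). Btg2, Nr4a2 and Ier5 had log2 changes of -1.30, -1.28 and -1.04 (limma adjusted p = 0.00496, 0.00223 and 0.00381). The abundant Fos (log2 change -0.44), Jun (-0.07) and Dusp1 (-0.07) were not called. The summed value was 594, 520, 1153 and 669 in WT replicates 1 to 4 and 393, 810 and 466 in Ngfr KO replicates 1 to 3. These sums overlapped between the genotypes, while Klf2 and Klf4 did not. Within each genotype, however, the sample with the highest sum, WT replicate 3 and Ngfr KO replicate 2, was also the highest for Klf2, Klf4 and Klf6. Per 100 units of that sum, Klf2 was at 1.90 to 2.81 in WT, against 0.235 to 0.251 in Ngfr KO. The part of stimulation during handling in the Klf values was not tested.

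**Figure D4:**
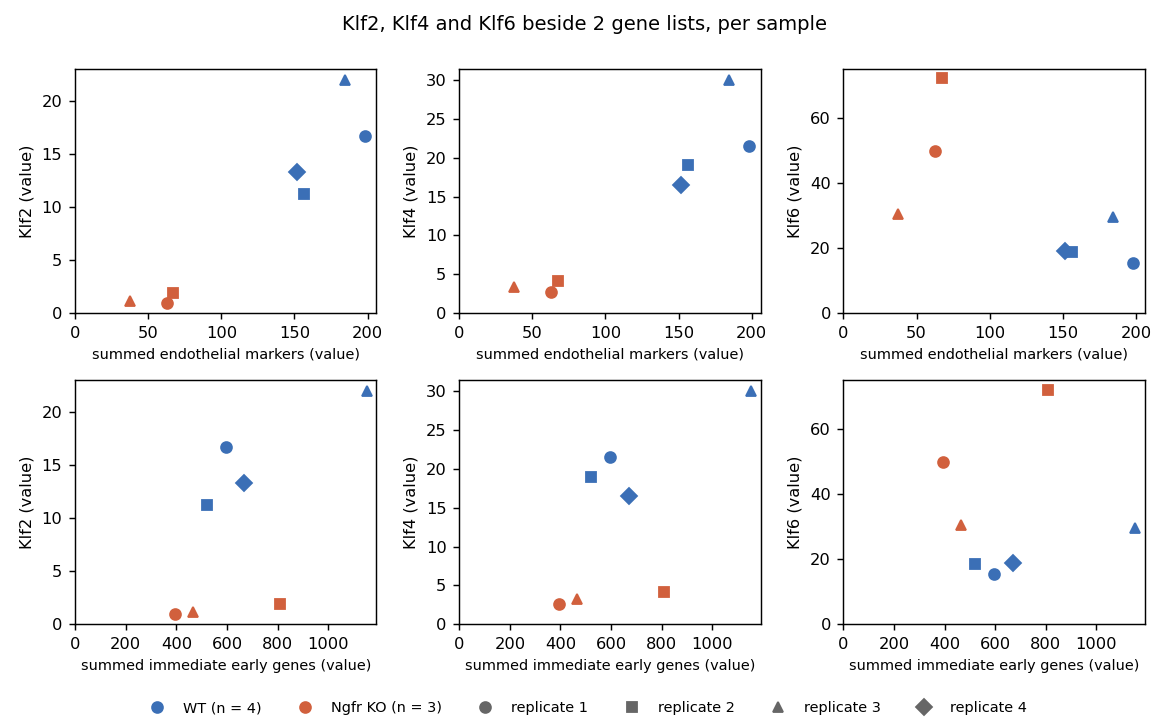
Value of Klf2, Klf4 and Klf6 in each sample (WT blue, Ngfr KO orange, symbols for replicates) against the summed value of 16 endothelial markers (top) and of 20 immediate early genes (bottom). Along the top the genotypes separate on both axes; along the bottom they overlap on the horizontal axis, and WT replicate 3 and Ngfr KO replicate 2 lie farthest right within their genotype.

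The genes with the profile most like that of Klf2 or Klf4 were named by the smallest root mean square difference between log2(value + 1) profiles, each centred on its own mean, over the 7 samples and 8318 other tested genes. For Klf2, Klf4 itself was nearer (0.26) than any gene outside the family. Outside it, the nearest to Klf2 were Cd300lg (0.33), Gpihbp1 (0.34), the identifier ENSMUSG00000112508 listed as Sept2 (0.40), Cavin2 (0.48) and Fabp4 (0.51). For Klf4 they were Gpihbp1 (0.20), Cd300lg (0.33), Cldn11 (0.33), Cavin2 (0.37) and Fosb (0.41). Gpihbp1, which carries lipoprotein lipase across capillary endothelium, had values of 5.16, 4.24, 8.71 and 3.65 in WT and 0.287, 0.746 and 0.0160 in Ngfr KO. Like Klf4, it was highest in WT replicate 3 and Ngfr KO replicate 2. The genotype difference dominates this measure, which also depends on the pseudocount of 1, larger than every Ngfr KO value of Gpihbp1. In edgeR the log2 change was -3.84 for Gpihbp1 and -2.62 for Klf4. ENSMUSG00000112508 was not matched in GENCODE M21.

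Klf2 and Klf4 are known to be controlled through MEK5, ERK5, the MEF2 factors, the CCM complex and Foxo1. Of 13 genes of these routes, 10 were tested and 2 called lower, beside 15.8% of all tested genes, with a median log2 change of -0.22. Foxo1, which drives Klf2 in lymphocytes, fell from a mean of 4.77 ± 0.38 in WT to 1.39 ± 0.38 in Ngfr KO (SD, n = 4 and 3), with a log2 change of -1.28 (limma SE 0.16, adjusted p = 3.3e-04). Mef2a, a MEF2 factor, fell from a mean of 8.10 ± 1.70 in WT to 4.36 ± 0.74 in Ngfr KO, with a log2 change of -0.75 (limma SE 0.19, adjusted p = 0.00958). The MEK5 gene Map2k5 (log2 change -0.12), Mef2c (-0.33), Krit1 (-0.04) and Pdcd10 (0.06) were not called, and the ERK5 gene Mapk7 did not reach the filter.

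Of 8 endothelial genes that Klf2 or Klf4 is known to raise, 5 were tested by limma. Called lower were 3 and higher 1, beside 15.8% and 18.3% of all tested genes, with a median log2 change of -1.02. In edgeR, which tested all 8, 3 were lower and 2 higher, the second being Ptgds, a prostaglandin D2 synthase gene below the limma filter (log2 change 3.04, SE 0.64, edgeR adjusted p = 0.0135). Thbd, the anticoagulant thrombomodulin, fell from a mean of 8.29 ± 3.50 in WT to 2.32 ± 0.33 in Ngfr KO (SD, n = 4 and 3), with a log2 change of -1.40 (limma SE 0.27, adjusted p = 0.00267). Nos3, the endothelial nitric oxide synthase, fell from a mean of 1.66 ± 0.58 in WT to 0.295 ± 0.030 in Ngfr KO, with a log2 change of -1.02 (limma SE 0.17, adjusted p = 0.00145). Tek, the angiopoietin receptor, which is also among the endothelial markers, had a log2 change of -1.37. Gja4, a gap junction gene, rose instead, from a mean of 13.7 ± 7.9 in WT to 72.6 ± 16.3 in Ngfr KO, with a log2 change of 2.51 (limma SE 0.41, adjusted p = 0.00134). S1pr1, the lymphocyte and endothelial target, was not called (log2 change -0.46, limma adjusted p = 0.0636), and its groups overlapped at 10.5 to 15.6 and 8.49 to 10.5.

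Of 7 endothelial genes that Klf2 or Klf4 is known to lower, 5 were tested. Called higher were 2 and lower 1, beside 18.3% and 15.8% of all tested genes, with a median of -0.09. Vcam1, an adhesion molecule that FDCs also express strongly and that is among the FDC markers, had a log2 change of 1.38 (limma SE 0.27, adjusted p = 0.00324). Edn1, the vasoconstrictor endothelin, was lower by limma (log2 change -1.14, SE 0.37, adjusted p = 0.0318), with overlap between the genotypes and an edgeR adjusted p of 0.207. Its limma call was lost under 10 of 18 alternatives, and in edgeR the list had 2 genes higher and no call lower.

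Genes around the other members were described in the same way. Of 7 corepressor genes, all tested, 1 was called lower and 2 higher, beside 15.8% and 18.3% of all tested genes. Ctbp1, the partner of Klf3, was lower (log2 change -0.60, limma adjusted p = 0.0102). Hdac1 (0.64, limma adjusted p = 0.0377) and Sap30 (0.53, limma adjusted p = 0.031) were higher, although edgeR called neither of these 2. Hdac1 lost its call under 11 of 18 alternatives and Sap30 under 5 of 15. The other 4 corepressor genes, among them Sin3a, the partner of Klf10 and Klf11, were not called. In the TGF-beta route that induces Klf10 and Klf11, 7 of 11 genes were tested. Called lower were 4 and higher 1, beside 15.8% and 18.3% of all tested genes, with a median of -0.76. Tgfbr2, a TGF-beta receptor subunit, fell from a mean of 14.5 ± 2.5 in WT to 4.30 ± 0.77 in Ngfr KO (SD, n = 4 and 3), with a log2 change of -1.55 (limma SE 0.18, adjusted p = 3.2e-04). Smad4 (-0.98), Tgfb3 (-0.76) and Tgfbi (-0.78) were lower as well, Tgfbi with overlap and without an edgeR call, and Skil, an inhibitor of the route, was higher (0.60). In edgeR, which tested all 11, 4 were lower and 1 higher. Among the lower was the ligand gene Tgfb1, below the limma filter (log2 change -1.89, SE 0.44, edgeR adjusted p = 0.0184), whose groups did not overlap. Klf10 and Klf11 themselves were not called, as given above.

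In the glucocorticoid response set beside Klf9, 6 of 8 genes were tested and 3 called lower, beside 15.8% of all tested genes, with a median of -0.32. The receptor gene Nr3c1 had a log2 change of -0.68 (limma SE 0.18, adjusted p = 0.0137) and Fkbp5 one of -0.59 (limma SE 0.17, adjusted p = 0.0183). Fkbp5 lost its call under 4 of 18 alternatives, with an edgeR adjusted p of 0.0503. Mt2, at -1.02 (limma adjusted p = 0.0488), was called in 4 of 19 alternatives only. Of the Sp factors, 3 of 9 were tested: Sp1 fell from a mean of 3.75 ± 0.62 in WT to 1.56 ± 0.17 in Ngfr KO (SD, n = 4 and 3), with a log2 change of -0.89 (limma SE 0.15, adjusted p = 0.00163), and Sp3 (-0.10) and Sp4 (-0.38) were not called.

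**Figure D5:**
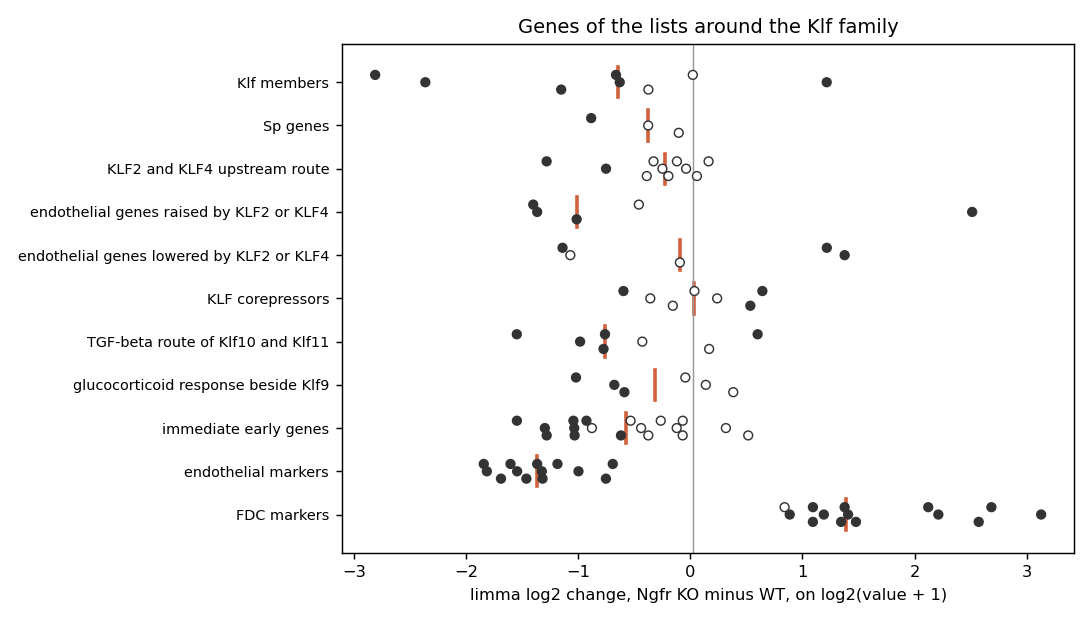
Limma log2 change (Ngfr KO minus WT, log2(value + 1)) of the tested genes in each list, filled where called, with an orange bar at the list's median and a grey line at the median of all tested genes (0.02). Endothelial markers lie wholly below 0 and FDC markers wholly above it, the Klf genes span from -2.81 to 1.22, and Tek and Vcam1 stand in 2 lists each.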

How the data were processed

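RNA of sorted FDCs was amplified with SMART-Seq v4 and made into Nextera XT libraries, per the labels' protocols. The table that the authors deposited, called TMM in its name, holds a normalised signal for each gene in each sample; build mm10 and bcl2fastq 2.20.0.422 are named per the submitters' processing notes. Aligner, counter and annotation are not given in the sources used here. In every sample 100% of values were whole multiples of 1 step (within 0.01 reads), which gave the reads back.

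Ngfr KO and WT were compared with limma 3.58.1 (R 4.3.3, eBayes with trend) on log2(value + 1), over genes that reached a value of 1 in 3 or more samples. A gene was called at a p-value under 0.05 after Benjamini-Hochberg adjustment. edgeR 4.0.16 (quasi-likelihood, filterByExpr, TMM) was run on the recovered reads, also with DESeq2 1.42.0 size factors. Both fits were tested on simulated data. Samples are pools, and p-values measure the spread between them. Levels per kb used merged exons of GENCODE M21 (GRCm38, the same build), matched for 21137 of 21176 identifiers. The edgeR SE is the log2 change divided by the root of its F.

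The Klf genes and the gene lists were chosen with earlier results of these data known. Named are all Klf genes, Ngfr, up to 4 called genes per list and direction by size of change, and the 5 profiles nearest to Klf2 and to Klf4; any other gene was picked for naming with its values known. One gene that this rule names is not reported here. Alternatives were other pseudocounts, filters, scalings and eBayes settings, the replicate number as a block, thinned reads and leaving out each sample. Intervals and floors in reads cover counting error only, since amplified reads are not independent molecules.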

Additional observations from a re-analysis of the deposited data

Results flagged for a closer look

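In a search for 1 sample standing far from the other 3 in 39 results of the WT group, 3 results were found, where chance gives about 1 in 20. Klf12 had a log2(value + 1) of 0.364 in WT replicate 3 (66 reads) and at most 0.0497 in the other WT samples, the gap taking 0.864 of the range. The summed value of the B-cell markers reached 196 in WT replicate 3, where the remaining WT samples had 28.3 to 43.5 (gap 0.909 of the range). The mean log2(value + 1) of the 8 members other than Klf2 and Klf4 reached 2.18 in WT replicate 1, with 2.11 to 2.12 elsewhere in WT, a gap of 0.913 of a very narrow range. The causes were not tested.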

How the results depend on the processing

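Among the Klf genes, 4 to 7 were called under the 19 alternatives, against 6 as reported, and Klf2, Klf4 and Klf7 were called lower in all 19. With only genes that reached 10 in 3 or more samples, 4 members were tested and all were called, and 535 of 1297 genes were called in all, since fewer genes were tested. No filter left 5 members called, all lower. Klf3 and Klf13 were called lower in all 18 alternatives that tested them. Klf2 ranged from -3.48 to -1.69 and Klf4 from -2.65 to -1.66 on the log2 scale, the smallest sizes with a pseudocount of 5. Leaving out 1 sample at a time gave 1614 to 3006 called genes against 2844: 1870 without WT replicate 1, 1803 without Ngfr KO replicate 1 and 1614 without Ngfr KO replicate 2, and 6 or 7 called members. With the replicate number as a block, which leaves WT replicate 4 without a partner, 2717 genes and 6 members were called. Same-numbered samples deviated together in 1 of 3 pairs (correlations across genes 0.298, -0.0593 and -0.0108). Pairs with different numbers reached at most 0.111. With so few pairs this cannot tell whether the numbers pair the samples, and the main fit does not pair them. Depth limits Klf16 and the 5 Klf genes outside the list, at most 66 reads in any sample.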
